A study of Mus musculus with 6 samples.

Results

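A set of 35 genes of amino acid supply and tRNA charging was followed in mouse N2a neuroblastoma cells after knockdown of nucleophosmin 1 (NPM1). They are a fixed list of gene symbols, chosen with earlier results of these data known, though no measured value enters the rule. They comprise 20 cytosolic aminoacyl-tRNA synthetases, 8 enzymes of serine, asparagine, proline and mitochondrial one-carbon metabolism, and 7 genes of the ATF4 axis. All 35 were found among the 26656 distinct gene identifiers of the deposited tables, the methionyl-tRNA synthetase Mars under its newer symbol Mars1.

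N2a cells were transfected with pLKO.1-shNpm1 (NPM1 KD) or with the non-targeting plasmid pLKO.1-shCTR (CTR), and RNA was taken 72 h later, at 3 days in vitro. Each condition has 3 libraries of long-read cDNA made with an Oxford Nanopore PCR barcoding kit and sequenced on a GridION. All cells carried the wild-type genotype of this line and grew in medium with added non-essential amino acids and glutamine. The labels of all samples, CTR included, share a protocol text that gives selection with 9.3 µg/ml puromycin from 24 h after transfection for the knockdown experiments. This text does not name the control plasmid. Only 1 shRNA against Npm1 was used, so an effect of this hairpin on other transcripts and an effect of NPM1 loss cannot be told apart.

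Aminoacyl-tRNA synthetases join each amino acid to its tRNA before translation. When a cell lacks an amino acid or its protein folding is disturbed, kinases phosphorylate the initiation factor eIF2, most translation slows, and the transcription factor ATF4 is translated more. ATF4 is known to drive many synthetase genes together with genes for asparagine, serine and proline synthesis, one-carbon metabolism and amino acid transport. It binds with C/EBP partners to a C/EBP-ATF response element (CARE).

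The promoters of the genes were searched for the CARE letters TGATGNAA on both strands, to show which members hold these letters near the start site. An element farther away or with other letters would be missed. Promoters were those of RefSeq on mouse build GRCm38.p6, each 300 bases long, from 250 bases before the start site to 50 bases after it. Promoters were looked up by gene symbol, which matched 28 of the 35 members. For Cars, Hars, Lars, Nars, Rars, Vars and Wars none was found under the symbols searched, so they were not examined. The letters stood in 9 of these 28 promoters, against 1219 of 27025 genes (4.51%) over all promoters in the table. By list, 5 of 13 synthetases, 2 of 8 amino acid enzymes and 2 of 7 ATF4-axis genes held a match. For each of the 9 genes 1 match follows as a 30-base window, read 5′ to 3′ on the strand of the gene, with the matched letters in capitals. A match beginning TT is the element on the opposite strand.

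Aars, chr8:111033840-111033869, plus strand: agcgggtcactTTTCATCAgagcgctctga
Gars, chr6:55037960-55037989, plus strand: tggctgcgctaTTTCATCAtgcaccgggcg
Iars, chr13:49682126-49682155, plus strand: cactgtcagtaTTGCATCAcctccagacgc
Tars, chr15:11399655-11399684, minus strand: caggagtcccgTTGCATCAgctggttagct
Yars, chr4:129189895-129189924, plus strand: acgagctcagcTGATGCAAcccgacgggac
Asns, chr6:7693214-7693243, minus strand: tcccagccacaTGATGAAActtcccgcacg
Pycr1, chr11:120643833-120643862, minus strand: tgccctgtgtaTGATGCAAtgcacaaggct
Trib3, chr2:152344028-152344057, minus strand: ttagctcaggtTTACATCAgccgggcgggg
Chac1, chr2:119351038-119351067, plus strand: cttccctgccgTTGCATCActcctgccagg

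In Asns the match began 23 bases before the start site and in Pycr1 103 bases before it. In Gars, Tars and Chac1 it began 30, 15 and 193 bases before the start, and in Aars, Iars, Yars and Trib3 the match shown lay in the first bases transcribed. No match was found in this window of Aldh18a1. The 250 bases before the start site are shown for Aldh18a1 and Pycr1, the enzymes of proline synthesis, and for Asns, the asparagine synthetase, whose values are described in what follows, again with matched letters in capitals.

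Asns, chr6:7693210-7693459, minus strand: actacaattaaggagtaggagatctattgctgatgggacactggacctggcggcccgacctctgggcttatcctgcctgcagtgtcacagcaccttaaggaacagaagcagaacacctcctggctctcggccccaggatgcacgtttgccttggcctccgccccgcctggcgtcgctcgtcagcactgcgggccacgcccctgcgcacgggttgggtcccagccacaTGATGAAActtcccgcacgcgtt
Pycr1, chr11:120643749-120643998, minus strand: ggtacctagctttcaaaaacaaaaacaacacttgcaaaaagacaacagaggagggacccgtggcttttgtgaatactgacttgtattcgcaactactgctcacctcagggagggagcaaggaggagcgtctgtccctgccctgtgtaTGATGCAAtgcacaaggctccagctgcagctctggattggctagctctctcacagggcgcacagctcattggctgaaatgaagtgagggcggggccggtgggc
Aldh18a1, chr19:40588464-40588713, minus strand: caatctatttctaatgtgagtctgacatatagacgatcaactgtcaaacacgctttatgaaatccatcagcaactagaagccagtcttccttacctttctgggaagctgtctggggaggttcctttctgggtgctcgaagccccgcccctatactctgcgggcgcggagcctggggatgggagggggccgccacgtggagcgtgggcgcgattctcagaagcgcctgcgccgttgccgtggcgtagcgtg

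The level of each gene is given as a regularized log (rlog) value, which is on the log2 scale, is corrected for the depth of the library and is drawn towards the average of its gene. All 75364 values of 1 or more in size are whole numbers. A step of 1 stands for a doubling on this scale, and smaller differences in a single library can be lost to rounding. Because values are rounded and drawn towards the average, the difference behind a step can be smaller or larger than a doubling. Values were not divided by transcript length, so they are compared within a gene and not between genes. Testing used limma with an allowance for the rounding, on genes whose mean rlog was log2 of 10 or more, and a gene was called at an adjusted p below 0.05 over the 5752 genes tested. In RNA from whole cultures, fewer cells of a type and less RNA per cell cannot be told apart.

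Npm1 itself had an rlog of 10 in all 3 CTR libraries and 8 in all 3 NPM1 KD libraries, a log2 difference of −2.0 (SE 0.33, limma adjusted p = 3.23e-06). The relative depth of the libraries, the factor that divides the reads of each to give normalized counts, was 1.1143 to 1.3023 in CTR and 0.7836 to 0.9606 in NPM1 KD. The CTR libraries were thus all deeper, and the part of depth in the results was not tested. Of 13 neuronal and sympathoadrenal markers, 2 (Nefl and Nefm) were at 0 in every library, and the summed level of the list, as 2 to the power of rlog, was 1260 to 1420 in CTR and 975 to 1020 in NPM1 KD. This sum is weighted to the highest genes, among which Stmn2 and Tubb3 were 1 step lower in NPM1 KD. Of the other high genes, Uchl1 stood at 8 in all 6 libraries and Hand2 had a higher mean in NPM1 KD. Of 6 fibroblast markers, Col1a2, Col3a1 and Lum were at 0, and the summed level was 2.14 to 2.39 in CTR and 2.16 to 2.46 in NPM1 KD.

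Of the 35 members, 30 passed the filter on low values and none was called, against 0.487% of all genes tested (28 of 5752), 0.0695% called higher and 0.417% called lower in NPM1 KD. At an unadjusted p below 0.05 stood 3 of the 30, Dars, Wars and Aldh18a1, against 14.1% of all genes. The groups did not overlap in 1 of the 30, Aldh18a1, which was lower, against 5.6% of all genes, 3.41% lower and 2.19% higher. The members below the filter were Mars, Atf5, Ddit3, Sesn2 and Cebpb. One rlog value in all 6 libraries was seen in 16 members, 53.3% of those tested, where the same held for 40.2% of all genes.

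**Figure D1:**
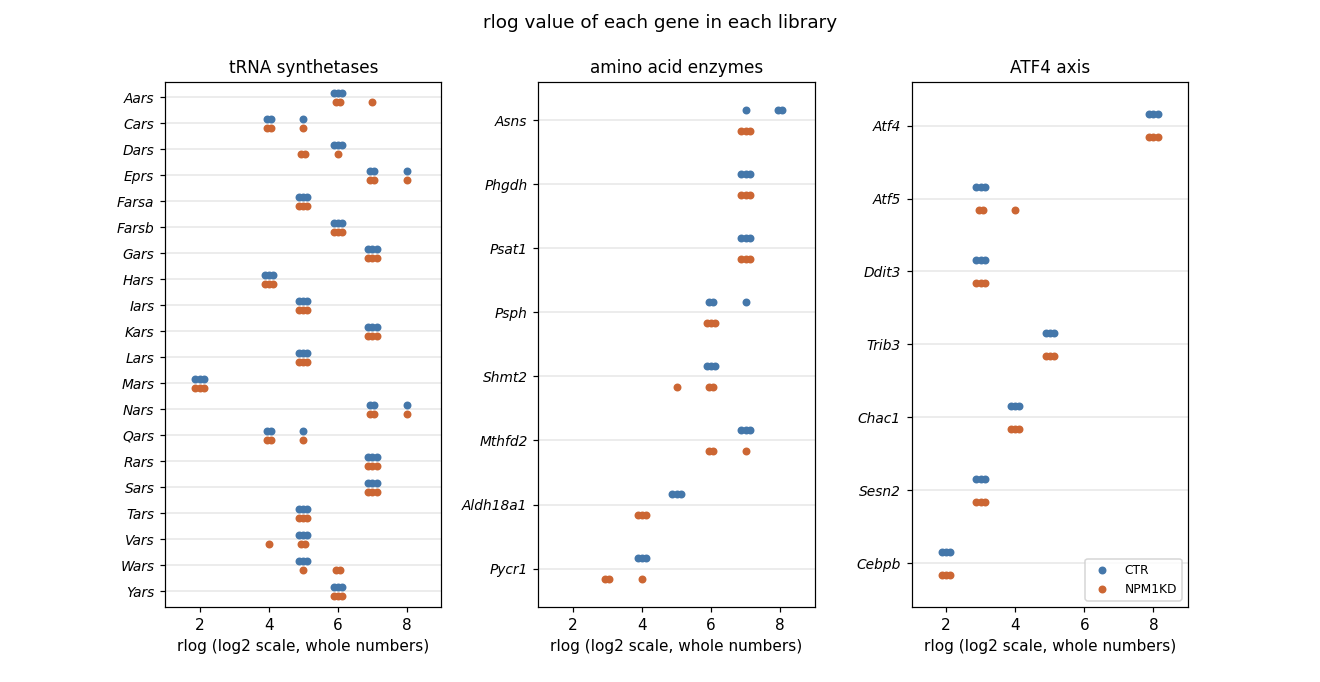
Each point is the rlog value of 1 library (x axis, log2 scale, whole numbers), with CTR in blue and NPM1 KD in orange and 1 row for each of the 35 genes in 3 panels. Points of equal value are drawn side by side. Aldh18a1 is the one gene whose groups do not overlap, and all ATF4-axis genes except Atf5 have a single value in all libraries.

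The cytosolic synthetases mostly had the same rlog value in both groups. Of 19 tested, 15 had equal means in CTR and NPM1 KD, 2 had a higher and 2 a lower mean in NPM1 KD, and none was called. Their median log2 difference was 0.0, as over all genes tested, of which 48.0% had equal, 24.6% higher and 27.4% lower means. For a synthetase with equal means the 95% interval of the log2 difference reached at least from −0.65 to 0.65 and at most from −0.68 to 0.68. These intervals are for rounded values, and equal values can hide larger differences. Aldh1l2, a gene outside the members and below the filter, had an rlog of 3 in all 6 libraries. By its reads, worked out as described below for Pycr1, its log2 fold change was −1.23. For a call even a full step of 1 in every library was not enough, as the values of Aldh18a1 show.

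There were 11 synthetases with the same value in all 6 libraries. This value was 4 for the histidyl enzyme Hars and 5 for Farsa, the alpha subunit of the phenylalanyl enzyme. It was also 5 for Iars, Lars and Tars, which charge isoleucine, leucine and threonine. Farsb, the beta subunit of the phenylalanyl enzyme, and the tyrosyl enzyme Yars stood at 6. The glycyl, lysyl, arginyl and seryl enzymes Gars, Kars, Rars and Sars stood at 7. Iars, Gars, Tars and Yars, with CARE letters in their promoters, were thus among those with no difference at this resolution.

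Another 4 synthetases varied between libraries with equal group means. Cars, for cysteine, had 4, 4 and 5 in CTR against 4, 4 and 5 in NPM1 KD. Eprs, the fused glutamyl-prolyl enzyme, had 7, 8 and 7 in CTR against 8, 7 and 7 in NPM1 KD. Nars, for asparagine, had 7, 7 and 8 in CTR against 8, 7 and 7 in NPM1 KD, and Qars, for glutamine, had 5, 4 and 4 in CTR against 4, 4 and 5 in NPM1 KD. In each of them 1 library of each group was a single step above its other two, so the groups overlapped completely.

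The remaining 4 synthetases differed in mean by 1 or 2 libraries out of 6. Dars, the aspartyl enzyme, had an rlog of 6 in every CTR library and 6, 5 and 5 in NPM1 KD. The log2 difference was −0.67 (SE 0.34) and did not pass adjustment (limma adjusted p = 0.33). Wars, the tryptophanyl enzyme, had 5 in every CTR library and 5, 6 and 6 in NPM1 KD, a log2 difference of 0.67 (SE 0.33, 95% interval 0.01 to 1.32) that did not pass either (limma adjusted p = 0.33). In both genes the first NPM1 KD library had the CTR value, so the groups overlapped. Without that library Dars and Wars joined Aldh18a1 as genes whose groups did not overlap, still with none called.

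Aars, the alanyl enzyme, with CARE letters in its promoter, had 6 in every CTR library and 6, 7 and 6 in NPM1 KD (log2 difference 0.33, SE 0.34, limma adjusted p = 0.713). Vars, the valyl enzyme, had 5 in every CTR library and 4, 5 and 5 in NPM1 KD (log2 difference −0.33, SE 0.33, limma adjusted p = 0.713). A single library made the difference in each.

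The multi-synthetase complex of the cytosol holds 8 of these enzymes, namely Dars, Eprs, Iars, Kars, Lars, Mars, Qars and Rars. Of the 7 tested, 1 (Dars) had a lower mean in NPM1 KD and 6 had equal means. Of the 12 synthetases outside the complex, 2 had a higher, 1 a lower and 9 an equal mean. Of 3 scaffold proteins of the complex, Aimp1 stood at 7 and Eef1e1 at 6 in all 6 libraries, and Aimp2 was below the filter. The mitochondrial synthetases are encoded by separate genes apart from a few shared ones, and of 17 listed, 7 were tested, of which 2 were higher, 2 lower and 3 equal in mean, with none called.

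**Figure D2:**
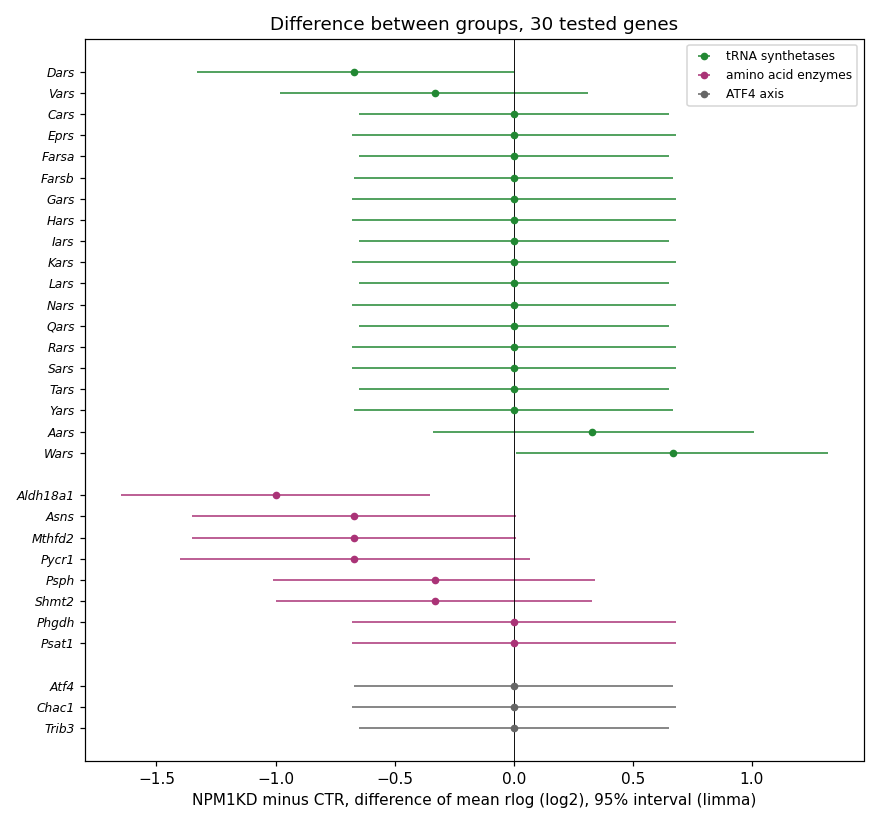
Points are the difference of mean rlog, NPM1 KD minus CTR (x axis, log2), for the 30 tested genes, with 95% intervals from limma, and colours mark the 3 lists. All amino acid enzymes lie at or below 0, while most synthetases lie at 0. Only the intervals of Aldh18a1, Dars and Wars leave out 0, before adjustment over all genes.

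The amino acid enzymes had lower means in NPM1 KD in 6 of 8 cases and equal means in 2, and none was called. Their median log2 difference was −0.5, where that of all genes tested was 0.0 and 27.4% of all genes had a lower mean. The count rests on whole-number steps in a few libraries, since 5 of the 6 lower enzymes overlapped between groups. The enzymes were also listed with earlier results of these data known.

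**Figure D3:**
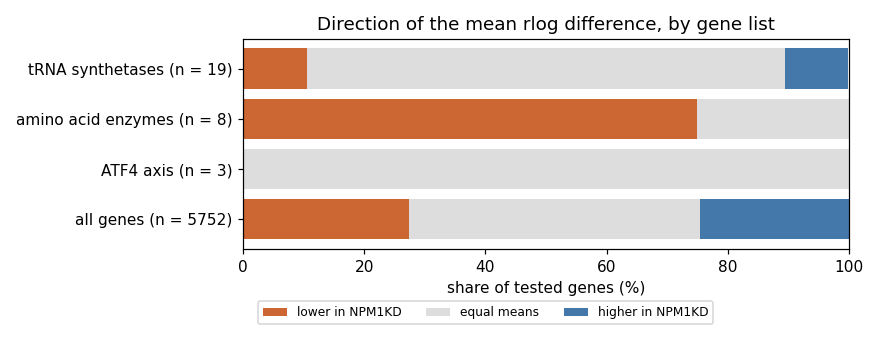
Bars give the share of tested genes (x axis, percent) whose mean rlog was lower, equal or higher in NPM1 KD, for each list and for all 5752 genes tested. The share of lower means is 75.0% in the 8 amino acid enzymes, 10.5% in the 19 synthetases, 0.0% in the 3 ATF4-axis genes and 27.4% in all genes.

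The enzyme with the most negative difference belonged to proline synthesis. Aldh18a1, which encodes the enzyme that commits glutamate to proline and ornithine synthesis, had an rlog of 5 in all 3 CTR libraries and 4 in all 3 NPM1 KD libraries. No other member separated the groups completely. The log2 difference was −1.0 (SE 0.33, 95% interval −1.65 to −0.35), and it did not pass adjustment (limma adjusted p = 0.0791). Without an allowance for rounding the adjusted p was 1.01e-11, and with the allowance but no intensity trend it was 0.0304, so whether Aldh18a1 was called depends on both settings of the variance estimate. These settings called 5.23% and 6.08% of all genes tested. From its mean normalized count of 22.8, counting error alone gives the log2 ratio of the groups an SE of 0.25.

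Pycr1, the mitochondrial reductase of the last step to proline, had an rlog of 4 in every CTR library and 3, 3 and 4 in NPM1 KD (log2 difference −0.67, SE 0.37, limma adjusted p = 0.396). For genes of this level the reads of each library could be worked out from the mean normalized count and the rlog values. Few combinations of whole reads near the rlog value of each library give exactly that mean. The recovered reads are thus not independent of the rlog values. Pycr1 had 16, 29 and 28 reads in CTR against 4, 4 and 9 in NPM1 KD. Normalized for depth, these were 12.89, 22.27 and 25.13 in CTR against 5.1, 4.8 and 9.37 in NPM1 KD, or 20.1 ± 6.4 and 6.43 ± 2.55 (SD, n = 3).

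All 3 NPM1 KD libraries were therefore below all 3 CTR libraries for Pycr1 on this finer scale. The log2 fold change was −1.52 (SE 0.45, 95% interval −2.42 to −0.62), a level in NPM1 KD 0.348 times that in CTR. It did not pass adjustment over the 4612 genes with recovered reads (limma voom adjusted p = 0.227). An exact permutation test, two-sided, gave p = 0.1, the smallest that 3 libraries against 3 allow. Groups without overlap were seen in 20.4% of genes on this scale, 12.3% of genes being lower and 8.09% higher. At mean normalized counts of 10 to 15, as for Pycr1, the recovered reads are less certain than at lower counts, since 33.28% of deliberately shifted means also had a solution. The same limit holds for the reads given below for Atf5, Slc7a11, Ppp1r15a, Atf3, Rars2 and Yars2.

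Asns, the glutamine-dependent asparagine synthetase and a much used reporter gene of ATF4, had an rlog of 7, 8 and 8 in CTR and 7 in every NPM1 KD library. The log2 difference was −0.67 (SE 0.35, 95% interval −1.35 to 0.01, limma adjusted p = 0.33). The groups overlapped through the first CTR library, and without it they did not.

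Of the serine pathway, Phgdh and Psat1, which catalyse the first and the following step from 3-phosphoglycerate, had an rlog of 7 in all 6 libraries. Psph, the phosphatase of the last step, had 6, 6 and 7 in CTR and 6 in every NPM1 KD library (log2 difference −0.33, SE 0.34, limma adjusted p = 0.713). In these 3 genes, 1 CTR library of Psph was the only value that departed from the rest of its gene.

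The mitochondrial one-carbon enzymes take up the serine made by this route. Shmt2, which splits serine into glycine and a one-carbon unit, had an rlog of 6 in every CTR library and 5, 6 and 6 in NPM1 KD (log2 difference −0.33, SE 0.34, limma adjusted p = 0.713). Mthfd2, the dehydrogenase and cyclohydrolase that follows it, had 7 in every CTR library and 6, 6 and 7 in NPM1 KD. Its log2 difference was −0.67 (SE 0.35, limma adjusted p = 0.33). For Mthfd2, as for Pycr1, the third NPM1 KD library had the CTR value, and without it the groups of both genes did not overlap.

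Of 16 neighbouring enzymes of these pathways, such as Shmt1, Mthfd1l and Got1, 10 were tested, of which 3 were higher, 3 lower and 4 equal in mean, with a median log2 difference of 0.0 and none called. Of 2 neighbours with recovered reads, the groups did not overlap in 1, Srr, against 20.4% of all genes on this scale and 12.3% lower. Srr, which makes D-serine, had 9, 12 and 14 reads in CTR against 5, 4 and 3 in NPM1 KD. Its log2 fold change was −0.97 (SE 0.51) and did not pass (limma voom adjusted p = 0.418).

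The tested genes of the ATF4 axis had equal rlog values in both groups. Atf4 itself had an rlog of 8 in all 6 libraries, with a 95% interval of the log2 difference from −0.67 to 0.67. Its protein is controlled mainly through translation, which these RNA values do not measure. Trib3, a pseudokinase induced by ATF4, stood at 5 in all 6 libraries, and Chac1, which degrades glutathione, stood at 4. The groups of all 3 were equal, so none was called and their median log2 difference was 0.0.

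The other 4 genes of the axis were below the filter and were followed by their recovered reads. Atf5, a transcription factor related to ATF4, had 6, 14 and 10 reads in CTR against 8, 14 and 11 in NPM1 KD. Normalized for depth, it was 8.19 ± 3.04 in CTR and 12.8 ± 3.51 in NPM1 KD (SD, n = 3), a log2 fold change of 0.68 (SE 0.41, limma voom adjusted p = 0.473). The groups overlapped.

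Ddit3, which encodes the stress factor CHOP, had 13, 7 and 5 reads in CTR against 9, 6 and 11 in NPM1 KD. Its log2 fold change was 0.62 (SE 0.45, 95% interval −0.28 to 1.53, limma voom adjusted p = 0.55). Sesn2, a leucine-binding inhibitor of mTORC1 signalling, had 7, 9 and 5 reads in CTR against 11, 5 and 6 in NPM1 KD, a log2 fold change of 0.49 (SE 0.48, limma voom adjusted p = 0.671). In both genes the first NPM1 KD library had a higher depth-corrected level than any CTR library while another overlapped with CTR.

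Cebpb, a C/EBP partner of ATF4, had 3, 6 and 3 reads in CTR and 3 reads in every NPM1 KD library (log2 fold change 0.16, SE 0.69, limma voom adjusted p = 0.939). The log2 fold change was above 0 in all 4 of these genes, where it was above 0 in 46.3% and below 0 in 53.7% of all genes with recovered reads. Before correction for depth, the summed reads in CTR and NPM1 KD were 30 and 33 for Atf5 and 25 and 26 for Ddit3. They were 21 and 22 for Sesn2 and 12 and 9 for Cebpb, and the groups overlapped in all 4 genes. None passed, and 0.0% of the 4612 genes did, while 574 of them (12.4%) had an unadjusted p below 0.05 in limma voom. In limma with a trend on the log2 normalized counts, 1 gene was called higher and 3 lower. Mars, the one synthetase read out this way, had 4, 8 and 5 reads in CTR against 1, 8 and 3 in NPM1 KD, with a log2 fold change of −0.22 (SE 0.66, limma voom adjusted p = 0.906) that turned positive in some settings.

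**Figure D4:**
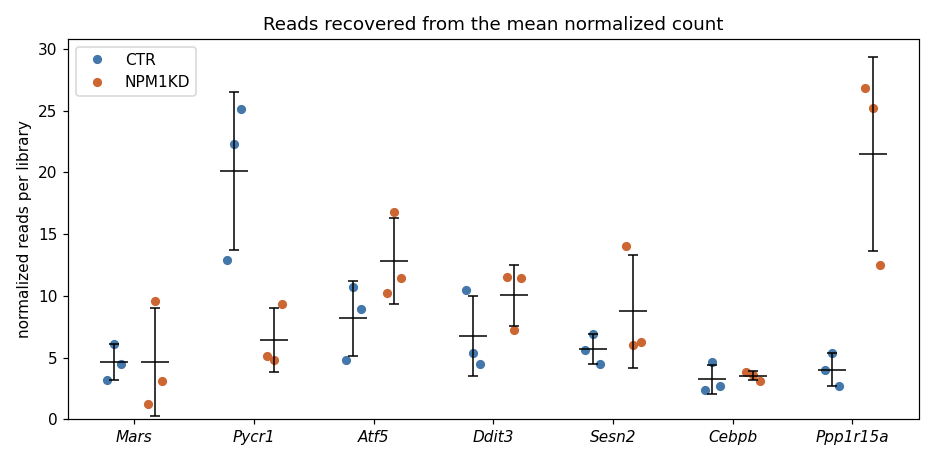
Points are depth-normalized reads of 1 library (y axis) for the 6 members with recovered reads and for Ppp1r15a, and bars give the mean and SD of 3 libraries. In Pycr1 the NPM1 KD libraries lie below the CTR libraries and in Ppp1r15a above them, while the other 5 genes overlap.

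Of the 9 members with CARE letters, all were tested, and 6 had equal means, 2 (Asns and Pycr1) a lower and 1 (Aars) a higher mean in NPM1 KD. Of the 19 members whose promoters held no match, 14 were tested, and 9 had equal and 5 lower means. This is a description of few genes, and a match is no evidence of binding.

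Genes upstream of ATF4 and other ATF4 targets were listed for comparison. Of 14 eIF2 kinases, eIF2 and eIF2B subunits and eIF2 phosphatase genes, 10 were tested, with 3 higher, 1 lower and 6 equal in mean and none called. Eif2b1, a regulatory subunit of the exchange factor for eIF2, had an rlog of 4 in every CTR library and 5 in every NPM1 KD library. It was the 1 of the 10 whose groups did not overlap, against 5.6% of all genes and 2.19% higher (log2 difference 1.0, SE 0.33, limma adjusted p = 0.0791).

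Of 9 amino acid transporter genes, 8 were tested, with 3 higher, 4 lower and 1 equal in mean, a median log2 difference of −0.17 and none called. Slc3a2, the heavy chain shared by several amino acid exchangers, had an rlog of 8 in every CTR library and 7 in every NPM1 KD library (log2 difference −1.0, SE 0.35, limma adjusted p = 0.0791). Slc7a11, the light chain of the cystine-glutamate exchanger, had 7, 7 and 5 recovered reads in CTR against 29, 6 and 17 in NPM1 KD. Its depth-corrected level was higher in every NPM1 KD library, though the second was close to CTR (log2 fold change 1.62, SE 0.47, limma voom adjusted p = 0.227). Without the second NPM1 KD library the log2 fold change was 2.23 (limma voom adjusted p = 0.0618). With the replicate numbers as blocks it was 1.88, and Slc7a11 was called (limma voom adjusted p = 0.0322). The 2 genes, whose proteins form 1 exchanger, thus lay on opposite sides of 0.

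Of 17 other ATF4 targets, 10 were tested, with 5 higher, 2 lower and 3 equal in mean, a median log2 difference of 0.17 and none called. Ppp1r15a, which encodes GADD34, the inducible subunit that returns eIF2 to its unphosphorylated form, had an rlog of 3 in every CTR library and 4 in every NPM1 KD library (log2 difference 1.0, SE 0.39, limma adjusted p = 0.166). Its recovered reads were 5, 7 and 3 in CTR against 21, 21 and 12 in NPM1 KD, less certain at its mean normalized count of 12.77. Depth-corrected, these were 4.03 ± 1.34 and 21.5 ± 7.84 (SD, n = 3), a log2 fold change of 2.26 (SE 0.47, 95% interval 1.32 to 3.2, limma voom adjusted p = 0.0589). It was called in limma with a trend (adjusted p = 0.0406) and without the third NPM1 KD library (limma voom adjusted p = 0.0109).

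Of 7 such targets with recovered reads, the groups did not overlap in 3, Ppp1r15a, Atf3 and Aldh1l2, against 20.4% of all genes on this scale, and Atf3 and Aldh1l2 lay in opposite directions. Atf3, a stress-induced factor that dimerizes with CHOP and Jun proteins, had 14, 11 and 9 reads in CTR against 14, 15 and 18 in NPM1 KD (log2 fold change 0.97, SE 0.35, limma voom adjusted p = 0.268). Aldh1l2, a mitochondrial folate enzyme acting beside Shmt2 and Mthfd2, had 21, 17 and 9 reads in CTR against 3, 3 and 7 in NPM1 KD (log2 fold change −1.23, SE 0.5, limma voom adjusted p = 0.308). Neither passed.

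Among mitochondrial synthetases, Rars2, for arginine, had 9, 11 and 11 reads in CTR against 10, 20 and 18 in NPM1 KD (log2 fold change 1.08, SE 0.37, limma voom adjusted p = 0.259). Yars2, for tyrosine, had 13, 10 and 5 reads in CTR against 13, 11 and 12 in NPM1 KD (log2 fold change 0.91, SE 0.4, limma voom adjusted p = 0.355). After correction for depth the groups of both did not overlap, 2 of the 6 mitochondrial synthetases with recovered reads, against 20.4% of all genes on this scale and 8.09% higher. Of the 6, 3 had a higher and 3 a lower fitted level in NPM1 KD. The median over them was 0.11 on the log2 scale, and Hars2 for histidine had the most negative value (log2 fold change −1.01, SE 0.72, limma voom adjusted p = 0.543). Hars2 had 10, 7 and 7 reads in CTR against 1, 13 and 1 in NPM1 KD, so its groups overlapped. Its depth-corrected means were close, 6.57 ± 1.36 in CTR and 5.98 ± 8.34 in NPM1 KD (SD, n = 3). Mars2, below the filter, ranged from 0.773 to 0.787 on the rlog scale in the CTR libraries and reached 0.822 to 1.0 in the NPM1 KD libraries. Its mean normalized count was only 1.92, and the share without overlap among genes below the filter was not worked out.

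Neuronal markers, like the amino acid enzymes, had mostly lower means in NPM1 KD. Tubb3 and Stmn2, which encode a neuronal tubulin and a microtubule regulator, had rlog values of 8 and 9 in every CTR library and 7 and 8 in every NPM1 KD library. Isl1, a transcription factor of sympathetic neurons, had 5 in every CTR library and 4 in every NPM1 KD library, and all 3 had a log2 difference of −1.0 (limma adjusted p = 0.0791). Of the 7 neuronal markers tested, 1 was higher, 4 lower and 2 equal in mean, and none was called. Phox2a, below the filter with a mean normalized count of only 1.42, had rlog values of at most 0.382 in CTR and at least 0.413 in NPM1 KD. The part of these markers in the lower values of the amino acid enzymes was not tested.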

How the data were processed

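Long-read cDNA of 3 CTR and 3 NPM1 KD N2a cultures was analysed from the tables that the authors deposited. The labels state 3 biological replicates in one place and 2 in another, and all 6 libraries were used. The submitters' processing notes name minimap2, featureCounts, DESeq2 and build GRCm39, without versions of the tools. The authors deposited rlog values, a log2-scale score per gene and library, and a second table with their mean normalized count per gene. Its fold changes, standard errors, test statistics and p-values are the authors' own comparison and were not used. The members and lists were chosen with earlier results of these data known.

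Of 26913 rows, 257 repeated a gene identifier under another symbol and were counted once. Genes with a mean rlog of at least log2 of 10 were fitted with limma 3.58.1 in R 4.3.3 (intensity trend, two-sided tests), and p-values were adjusted by Benjamini-Hochberg over the genes tested. Within-group variances under 0.0833, the variance of rounding to whole numbers, were raised to it, because most values are whole. The rlog values are not counts, so no count model was fitted to them.

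Total reads per library are not given, and the mean normalized counts sum to 841220.3. For means of 3 to 15, reads per library were recovered as whole numbers divided by the relative depths. This was chosen after seeing the data. In each library the search covered reads within a margin of its rlog value, beyond the rounding. The margin was 2 log2 units for means below 10 and 1 for means of 10 to 15. A single solution was found for 3484 of 3497 genes with means of 3 to 10 (99.6%) and 1128 of 1358 with means of 10 to 15 (83.1%). Shifted means had a solution in 1.34% and 33.28%. Depths were assigned to libraries through 969 low genes with unrounded rlog values (correlation at least 0.999 with the own library and at most 0.017 with any other). These reads were tested with limma voom. Of the lists outside the members, genes were named where they were called or did not overlap between groups. Alternatives were the rounding allowance, trend, filter, centring, replicate block and leaving out each library. Some items are not reported here.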

Additional observations from a re-analysis of the deposited data

How the results depend on the processing

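No member was called under 11 of the 13 alternatives. Aldh18a1 was called, as 1 amino acid enzyme, without the allowance for rounding and without the intensity trend. Over all genes, 4 were called higher and 24 lower, which became 123 and 178 without the allowance, 132 and 218 without the trend, 1 and 10 without the filter, and 1 and 7 with the rounding variance added. Leaving out 1 library gave 0 to 2 higher and 5 to 9 lower, with smaller groups in each fit, and 1 to 3 members without overlap. The deviations of same-numbered libraries from their group means correlated at 0.009, 0.001 and 0.03 in the rlog values. Whether the replicate numbers pair the samples cannot be told from this, because the values are mostly whole numbers. In the recovered reads, which are from genes of low counts, the same correlations were 0, −0.016 and 0.023. Libraries of different numbers correlated there at −0.022 to 0.021, so no sign of pairing was seen. On the rlog values a replicate block gave 1 higher and 7 lower calls and no member called.

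On recovered reads, where none was called in either direction, limma with a trend called 1 higher and 3 lower. The replicate block called 3 higher and 0 lower, Slc7a11 (adjusted p = 0.0322) and Ppp1r15a (adjusted p = 0.00664) among them, and leaving out 1 library 0 to 1 higher. Mars turned to 0.17 under the replicate block and to 0.26 without NPM1 KD replicate 1, where its lowest library is left out, and was between −0.82 and 0.26 over the libraries left out. Why the other values changed was not tested. Whole-number values and 3 libraries a group limit what could be detected.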
